A study of Caenorhabditis elegans with 2 samples.

Results

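A set of 9 genes of the nematode Caenorhabditis elegans that code for subunits of the NuRD, MEC and Tip60 chromatin complexes were examined for binding by DPL-1. They were taken by gene symbol from the Ensembl annotation of assembly WBcel235 (build ce11), and all 9 matched, out of 19973 protein-coding genes on the nuclear chromosomes. The assay was ChIP-seq, in which DNA pulled down with the protein is sequenced, against DPL-1 in whole first-stage (L1) larvae of mixed sex, with sonicated chromatin, in 1 group of 2 biological replicates. All larvae were of strain YL448, which carries the allele unc-119(ed3) and the transgene vrIs83, in which pGES-1, the promoter of an intestinal esterase gene, drives DPL-1 joined to GFP and FLAG tags. The transgene also holds the 3'UTR of DPL-1 and unc-119 (+). The antibody label named dpl-1 without an epitope, so native DPL-1 and the tagged product cannot be told apart. The series holds no second condition, and the depth of each library was not known.

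DPL-1, the DP protein of worms, pairs with E2F factors and belongs to DREAM, a complex that represses cell cycle and germline genes in somatic cells. NuRD joins a nucleosome remodelling ATPase to a histone deacetylase, and in the worm MEC holds the same ATPase and deacetylase together with the zinc finger protein MEP-1. Tip60 complexes acetylate histones and, through a remodelling ATPase, place the histone variant H2A.Z. Worm genes for all 3 complexes are known from vulval synthetic multivulva (synMuv) genetics, and the LET-418 and MEP-1 proteins are known for keeping germline genes off in the larval soma.

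A DPL-1 summit of the authors' IDR list lay in the promoter of 5 of the 9 genes: mys-1, trr-1, epc-1, mep-1 and let-418. Among all protein-coding genes the share was 14.3%. A promoter was the stretch from 500 bp upstream to 200 bp downstream of an annotated transcript start, and the irreproducible discovery rate (IDR) list of the authors held 3726 peaks, those with the highest pooled signal. A place in that list thus does not by itself show a strong peak in each replicate. Signal is the authors' value per peak, on a scale that the files did not state, and rank 1 is the highest signal of a list. Of the 4 Tip60 genes 3 were bound, and of the 5 NuRD and MEC genes 2 were. The 5 bound genes had a median signal of 169.2 and a median rank of 1169, against 154.5 and 1266 over all 2855 bound genes. The medians were close, and the 5 spread widely around theirs, with signals between 41.4 and 669.

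Sequences from within the 5 peaks are shown because the peaks lie over them, each as 30 bases of ce11 on the strand of the gene, read from the RefSeq copy of that assembly. Capitals mark a match on either strand to an E2F type string, which was GCGCGAA or its variant GCGGGAA or the further variant GCGCCAA. Where none of these lay within 50 bp of the summit, they mark a CHR type string, the kind of site that the DREAM subunit LIN-54 reads, which was TTTGAA or the variant TTCGAA. Without capitals the 30 bases are centred on the summit. With capitals they are centred on the marked string, and at mys-1, mep-1 and let-418 they do not include the summit.
mys-1 (chrV:7084959-7084988, minus strand): ttgttattctttTTTGAAttgccgcccttt
trr-1 (chrII:11676135-11676164, minus strand): caaccgcgagtGCGCCAAcacacacacata
epc-1 (chrIII:12608775-12608804, minus strand): tgtgtgcgattgtgtgtggtgcgacgtggc
mep-1 (chrIV:11524487-11524516, plus strand): ttctcttgtgcgTTCAAAtctggcttgccg
let-418 (chrV:5826721-5826750, plus strand): acttttcacactTTCAAAttttgctgattt
An E2F type string was found at 1 of the 5, trr-1, with the marked copy 7 bp from the summit. These strings were within 50 bp of the summit in 15% of the 2263 IDR peaks in promoters, and in 2.78% of 19973 windows of the same 101 bp, 1 per protein-coding gene and centred 173 bp upstream of its first start. The string TTTGAA was within 50 bp of 4 summits, those of mys-1, trr-1, mep-1 and let-418, against 27.1% of the promoter peaks and 29.7% of the gene windows. The marked copies lay 30 bp from the summit at mys-1, 46 bp at mep-1 and 37 bp at let-418. TTCGAA was at none of the 5, against 7.42% of peaks and 6.66% of gene windows. The strings were searched on both strands, TTCGAA reads the same on either, and GCGCGAA can overlap its own complement. A match is a description of the letters and was not tested.

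**Figure D1:**
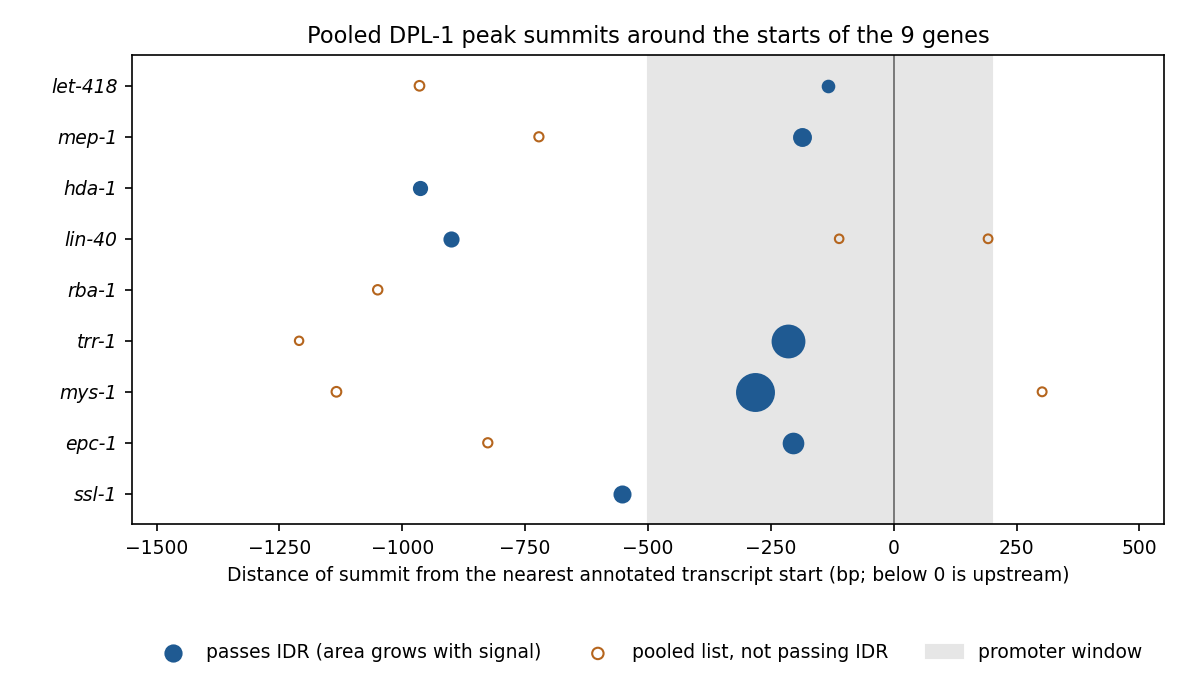
Summits of the pooled peak list around the 9 genes, with distance from the nearest annotated transcript start in bp on the horizontal axis and 1 gene per row. Filled circles, which the legend calls passing IDR, are peaks of the IDR list, and their area grows with signal. Open circles are not in that list, and the grey band is the promoter. In the band 5 genes have a filled circle, and hda-1, lin-40 and ssl-1 have one between 552 and 964 bp upstream.

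The Tip60 genes mys-1, trr-1 and epc-1 carried the strongest promoter peaks of the 9. The highest was at mys-1 (WBGene00007029), the worm's Tip60 acetyltransferase, with a peak at chrV:7084811-7085073 whose summit lay 282 bp upstream of the start in intergenic sequence. Its signal was 669 in the pooled data (rank 363), 513 in replicate 1 (rank 406) and 159.5 in replicate 2 (rank 254). That was 4.33 times the signal of the median bound gene, and 84.6% of bound genes were weaker. No other protein-coding gene had this summit in its promoter.

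trr-1 (WBGene00007028), whose product is the TRRAP scaffold that recruits the acetyltransferase, followed with a peak at chrII:11676028-11676252. Its signal was 489 in the pooled data (rank 495), 411 in replicate 1 (rank 491) and 77.9 in replicate 2 (rank 532). The summit lay 216 bp upstream of trr-1 but 163 bp upstream of C47D12.2, on the opposite strand with 378 bp between them, so the peak could belong to either gene or to both. The replicates placed it at nearly the same rank.

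epc-1 (WBGene00007030), the worm's Enhancer of Polycomb and a core subunit of the acetyltransferase module, had a narrow peak of 135 bp at chrIII:12608729-12608863, 204 bp upstream of a start. Its signal was 169.2 in the pooled data (rank 1169), 144 in replicate 1 (rank 1177) and 26.2 in replicate 2 (rank 1184). It stood near the middle of all bound genes, with 52.5% of them weaker. The same summit lay 499 bp upstream of the divergent gene Y111B2A.12, at the edge of that gene's promoter. A stronger IDR peak lay 1000 bp past the end of epc-1, in the promoter of gldi-8. Its signal was 334.8 in the pooled data (rank 683), 292 in replicate 1 (rank 664) and 47.8 in replicate 2 (rank 762).

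ssl-1 (WBGene00007027), the SWR1-like remodelling ATPase of this group, had no pooled peak in the promoter of any of its 4 annotated starts, and the best replicate peak there was of rank 15490 in replicate 2, with a signal of 3.66. An IDR peak lay just beyond the promoter edge, at chrIII:12713854-12714173, with its summit 552 bp upstream. Its signal was 103.8 in the pooled data (rank 1722), 94.5 in replicate 1 (rank 1648) and 10.02 in replicate 2 (rank 2659). The summit was in the 691 bp between ssl-1 and hut-1, which lies upstream on the same strand, and in the promoter of no gene. The nearest start to this summit was that of hut-1, 487 bp away. A further IDR peak was inside an intron of ssl-1, at chrIII:12738979-12739298, with a pooled signal of 114.1 (rank 1614), 80.4 in replicate 1 and 32.8 in replicate 2.

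Both bound genes of the NuRD and MEC group were weaker than the 3 bound Tip60 genes. mep-1 (WBGene00003218), the zinc finger subunit that defines MEC, had a peak at chrIV:11524296-11524615 with its summit 186 bp upstream. Its signal was 118.3 in the pooled data (rank 1575), 113 in replicate 1 (rank 1416) and 4.21 in replicate 2 (rank 12120). The peak therefore rested almost wholly on replicate 1, which made up 96.4% of the summed signal. That share was high at the other bound genes too: 76.3% at mys-1, 84.1% at trr-1, 84.6% at epc-1 and 79.3% at let-418. In replicate 2 the -log10 q of the matching peak was 1.03, against 3.67 in replicate 1. The strongest peak of replicate 1 had the same value of 3.67.

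let-418 (WBGene00002637), the worm's Mi-2 type ATPase shared by NuRD and MEC, was the weakest bound gene of the group, with a peak at chrV:5826539-5826858 and its summit 134 bp upstream. Its signal was 41.4 in the pooled data (rank 3606), 32.3 in replicate 1 (rank 3913) and 8.42 in replicate 2 (rank 3252). It lay just inside the IDR list, whose weakest peak had a signal of 39.5, and only 1.68% of bound genes were weaker. Another IDR peak of similar signal, 44.9 (rank 3374), lay 160 bp past the end of the gene, where replicate 1 had a signal of 37.0 (rank 3507) and replicate 2 one of 4.93 (rank 8918).

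**Figure D2:**
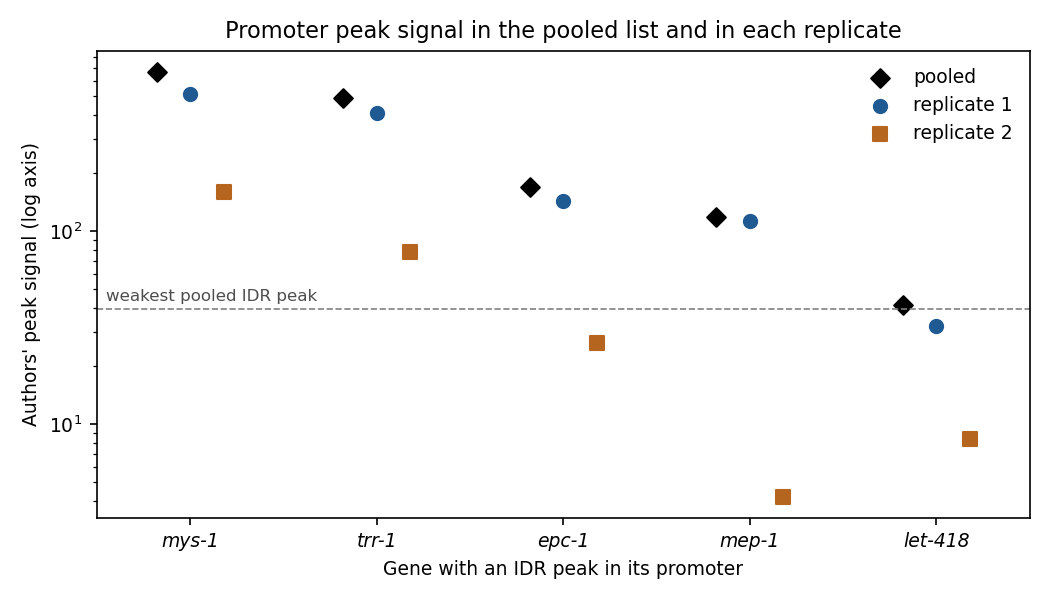
The authors' signal (log axis) of the promoter peak of each bound gene in the pooled list, replicate 1 and replicate 2, with the weakest pooled IDR peak as a dashed line. Signals fall in the order mys-1, trr-1, epc-1, mep-1, let-418 in the pooled list and replicate 1, while in replicate 2 mep-1 is the lowest at 4.21, under let-418 at 8.42.

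The other 3 genes of NuRD and MEC had no IDR summit in their promoters, although peaks lay farther upstream of 2 of them. hda-1 (WBGene00001834, chrV:14525389-14527411), the class I histone deacetylase common to both complexes, had no pooled peak in its promoter and none in either replicate. The nearest IDR summit was 964 bp upstream, at chrV:14524265-14524584, and lay 296 bp upstream of ril-1, which runs the other way. Its signal was 61.7 in the pooled data (rank 2611), 46.8 in replicate 1 (rank 2898) and 12 in replicate 2 (rank 2232). By the rule used here this peak lay in the promoter of ril-1 and not in that of hda-1.

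lin-40 (WBGene00003025), the worm's MTA type scaffold subunit, held only weak pooled entries in its promoters. The best was at rank 16229, with a signal of 12.6 and a -log10 q of 0.0985, 192 bp downstream of a start. In that stretch replicate 1 had at best a peak of rank 17671 (signal 9.88) and replicate 2 one of rank 16858 (signal 3.48), at other positions. An IDR peak lay 901 bp upstream, at chrV:3703927-3704246, in intergenic sequence and in the promoter of no gene, with lin-40 as the nearest start. Its signal was 74.6 in the pooled data (rank 2252), 64.8 in replicate 1 (rank 2231) and 9.32 in replicate 2 (rank 2872).

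rba-1 (WBGene00004312), which codes for a histone-binding WD40 protein of the RbAp type, had no pooled peak in its promoter, and the best there was a replicate 1 peak of rank 29377 with a signal of 7.32. It begins 88 bp past the end of lin-53, its paralog, on the same strand. The strong peak of this locus was at the start of lin-53, 1887 bp upstream of rba-1, with a pooled signal of 1091 (rank 178), 925 in replicate 1 (rank 170) and 173 in replicate 2 (rank 224). The summit lay 234 bp upstream of lin-53 and 233 bp upstream of nra-2 on the opposite strand. Whether rba-1 is also transcribed from the lin-53 start was not measured here. A weaker IDR peak lay 99 bp past the end of rba-1, in the promoter of K07A1.10. Its signal was 45.3 in the pooled data (rank 3355), 43.2 in replicate 1 (rank 3117) and 2.54 in replicate 2 (rank 26012).

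Counting summits up to 1000 bp upstream, 8 of the 9 genes were bound, all but rba-1, while the share of all genes was 17.3%. The 3 added were hda-1, lin-40 and ssl-1, out of 4 without a promoter summit. Over all 17118 genes without one, 3.46% had an IDR summit in that farther stretch. One of the 3, at hda-1, was in the promoter of another gene, and that at ssl-1 was nearer to the start of hut-1.

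Both replicate lists held a summit within 100 bp of the pooled one at all 5 bound genes, as at 91.9% of all bound genes. The replicate lists include weak entries, such as that of rank 12120 matched at mep-1 in replicate 2, so a match alone does not show a strong peak. Signals were higher in replicate 1 at each of the 5, and the ratio of replicate 1 to replicate 2 was 5.21 at the median bound gene (10th to 90th percentile 3.39 to 9.96, 2623 genes). trr-1, at 5.27, and epc-1, at 5.50, were close to it, and let-418 was lower at 3.83. mys-1 was at 3.21, below the 10th percentile, so its place was higher in replicate 2 than in replicate 1. mep-1 was at 26.9, with 7 bound genes above it. The replicates' summits were within 12 bp of the pooled summit at mys-1, trr-1, epc-1 and mep-1, and 42 bp away in replicate 2 at let-418.

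Taking as many of the strongest peaks from each replicate as the IDR list holds, each replicate alone called 4 of the 9. Replicate 1 had mep-1, trr-1, mys-1 and epc-1 beside 14.3% of all genes, and replicate 2 had let-418, trr-1, mys-1 and epc-1 beside 12.8%. The 3 Tip60 genes were thus found in each replicate alone, mep-1 in replicate 1 and let-418 in replicate 2.

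**Figure D3:**
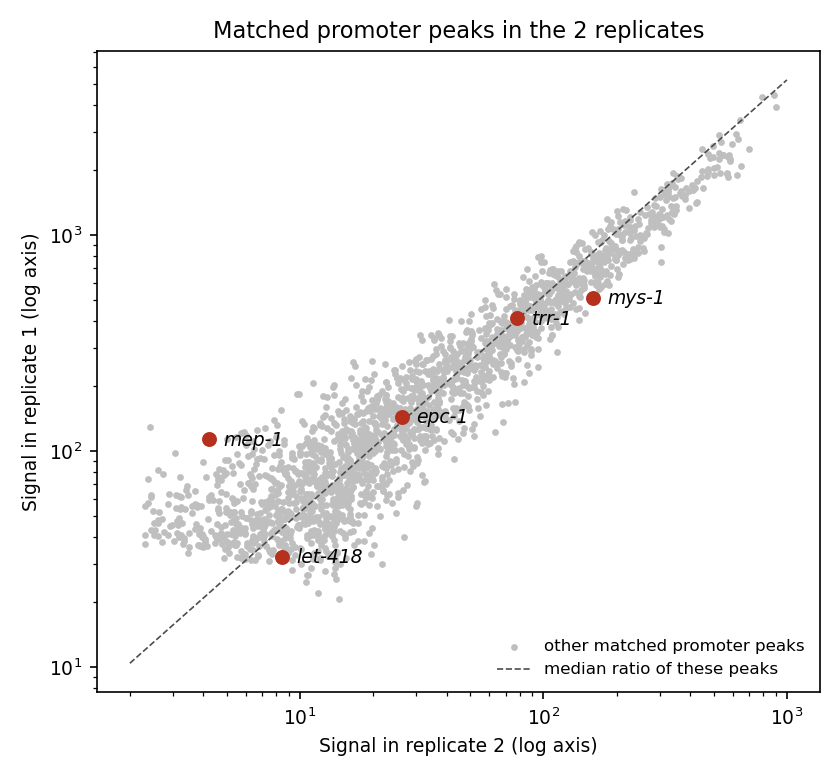
Signal in replicate 1 against replicate 2 (both log axes) for promoter peaks matched in the replicates, each the strongest of a bound gene, with the 5 genes named. The dashed line is the median ratio of 5.21; trr-1 and epc-1 lie close to it, and mep-1 lies far above it at 113 against 4.21.

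A wider list of 17 genes held further subunits of these complexes, paralogs of their subunits and partners such as htz-1 and sin-3. Of these 17 genes, 9 were bound, beside 14.3% of all genes: 7 of 9 on the Tip60 side and 2 of 8 on the NuRD side. The strongest peaks of replicate 1 alone called the same 9, beside 14.3% of all genes. Those of replicate 2 alone called 7 of the 17, beside 12.8%. These 7 included dcp-66 but not sin-3, ruvb-1 or mys-4. The difference between the sides was not tested. The strongest was htz-1, the H2A.Z gene, with a pooled signal of 1197 (rank 155), 1036 in replicate 1 and 159 in replicate 2, but the summit was nearer to the divergent gene wapl-1 (172 bp) than to htz-1 (304 bp).

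Next on the Tip60 side came ekl-4, the DMAP1 homolog, with a signal of 859 (rank 259), on a summit that rps-20 shares from the other strand. ruvb-2, one of a pair of AAA ATPases, had a signal of 713 (rank 337) and shared its summit with no other gene, while its partner ruvb-1 was far weaker at 89.5 (rank 1936), with tofu-1 sharing its summit from 327 bp away. The chromodomain gene mrg-1 had a signal of 512 (rank 484), on a summit nearer to the divergent gene spcs-2 (135 bp) than to mrg-1 (240 bp). gfl-1, a YEATS domain gene, had a signal of 192.5 (rank 1054), with its summit 125 bp upstream of gfl-1 and 134 bp upstream of M04B2.4 on the other strand. The acetyltransferase gene mys-4, a paralog of mys-1, had a signal of 45.1 (rank 3362), whereas mys-2 had no pooled peak in its promoters, nor did ing-3, an ING type reader gene. ruvb-2 was the 1 bound gene of the 9 with an E2F type string within 50 bp of its summit, GCGCCAA, as at trr-1. TTTGAA was within 50 bp of the summit at 2 of these 9, lin-53 and gfl-1, a share near that of all promoter peaks, and TTCGAA at none.
ruvb-2 (chrIV:6919476-6919505, minus strand): tttttctgtggTTGGCGCgtttcgtgcgcg

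On the NuRD side the bound genes were lin-53 and sin-3. sin-3, the scaffold of another complex built on class I deacetylases, had a signal of 81.1 (rank 2100), with its summit 479 bp upstream. The Mi-2 paralog chd-3 had a pooled peak of rank 4418 (signal 32.2), outside the IDR list, with a peak in the replicate 1 promoter list (rank 4048) and none in replicate 2. dcp-66, the p66 type subunit, had a pooled peak of rank 4274 (signal 33.3) that was of rank 1946 in replicate 2 and 6127 in replicate 1. mbd-2 (rank 5824) and the MTA paralog egl-27 (rank 12554) had weaker pooled peaks, and the deacetylase paralogs hda-2 and hda-3, like hda-1, had none in their promoters, although replicate 2 alone had a peak of rank 8450 (signal 5.07) at hda-2.

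mep-1 and gfl-1 are neighbours on the same strand of one chromosome, 2427 bp apart, and each had an IDR summit in its promoter, that of gfl-1 shared with M04B2.4. A further IDR peak with a signal of 105.8 (rank 1696) lay between them, 1854 bp upstream of mep-1. There replicate 1 had a signal of 97.1 (rank 1609) and replicate 2 one of 7.67 (rank 3765).

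**Figure D4:**
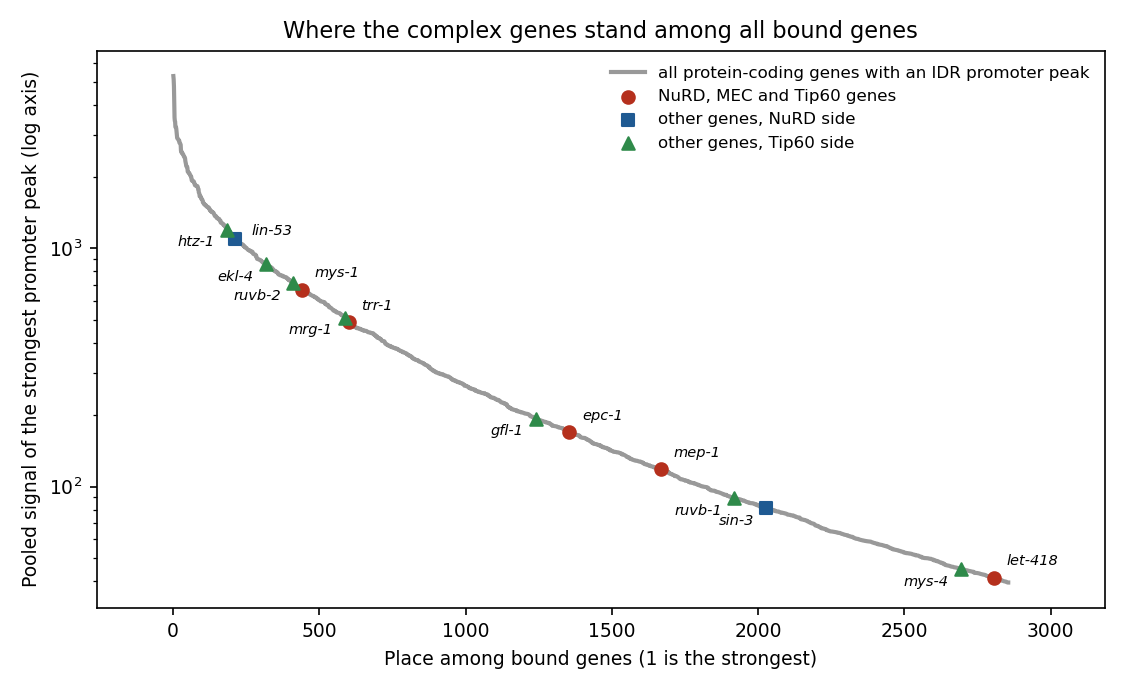
Pooled signal (log axis) of the strongest promoter peak of every bound gene in order from the strongest, as a grey line, with the 5 bound NuRD, MEC and Tip60 genes as circles and 9 bound genes of the wider list as squares (NuRD side) and triangles (Tip60 side). mys-1 and trr-1 lie in the upper part, epc-1 and mep-1 near the middle, and let-418 close to the lower end.

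By pooled signal, the bound genes next to mys-1 were rpb-8 just above (rank 361, signal 672) and nprt-1 and dib-1, which share a peak, just below (rank 364, signal 669). Their replicate ranks were 370 and 338 for rpb-8 and 350 and 416 for the shared peak, in replicates 1 and 2, so neighbours of mys-1 in the pooled order stood lower than its rank of 254 in replicate 2. Next to let-418 were lap-2 (rank 3604, signal 41.4) and B0379.1 (rank 3611, signal 41.3), and in replicate 2 these were at ranks 2359 and 8531. Thus let-418, at rank 3252 in replicate 2, and these neighbours were nearly equal in pooled signal but far apart in that replicate. Other peaks at this end of the list were not compared in this way.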

How the data were processed

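The samples were 2 biological replicates of DPL-1 ChIP-seq in L1 larvae, in 1 group by the labels' description. The authors deposited narrowPeak lists, and, per the descriptions deposited beside them, a replicate list used the reads of that replicate with a control, the pooled list used those of both, and the IDR list was drawn from all 3. The pooled list is labelled as peaks and background, the input for IDR, and held 30000 entries. A low-ranked entry in it need not be binding. Which aligner and peak caller were used is not given in the sources used here. As for the values, signal per peak is the authors' deposited value, of unstated scale, used to rank and describe peaks. In the pooled list the -log10 q deposited by the authors has a maximum of 3.64, shared by 2162 peaks, so it was not used for ranks. Pooled signal was 1.00 times the sum of the replicates at the median peak, so signals were read as not scaled to depth. Control libraries, alignments, signal tracks and the ce10 lists were not analysed here.

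Promoters used every transcript start of Ensembl release 115 (WBcel235, the assembly of ce11; every peak ended inside its chromosome), and a gene took its strongest promoter peak. Replicate peaks were matched to pooled summits within 100 bp, taking the strongest. Strings were searched in RefSeq's copy of WBcel235. The 9 genes and the wider list of 17 (all of which matched by symbol) were chosen with earlier results of these data known, so no test was made and counts stand beside the share of all genes. Named genes were these, genes sharing their promoter summits, those beside peaks just outside their promoters, and the neighbours in rank of the strongest and weakest bound gene. Peaks and genes are not replicates. Alternatives were wider promoters, nearest starts within 1000 bp, any overlap of the peak, the stronger 1863 IDR peaks, each replicate alone, promoters overlapping no other, other matching distances and other string windows. The calling code was tested on simulated data. Python 3.11.15, numpy 2.4.6, pandas 2.3.3 and matplotlib 3.10.9 were used.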

Additional observations from a re-analysis of the deposited data

How the results depend on the processing

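The count of bound NuRD, MEC and Tip60 genes, 5 of 9, was 8 with promoters from 1000 bp upstream and 3 among the 7 genes whose promoters overlap no other (let-418, mep-1 and mys-1, since trr-1 and epc-1 have overlapping promoters), beside 8.41% of all genes with such promoters. In the other settings it was 4 to 6: 4 among the stronger 1863 IDR peaks (9.37% of all genes), 4 without replicate 1 and 4 without replicate 2, 5 with nearest starts, which exchanged trr-1 for lin-40 (13% of all genes), and 6 with any overlap of the peak, which added ssl-1 (15.3% of all genes). For the wider list the count of 9 was 3 among the 11 genes whose promoters overlap no other (again beside 8.41%), 7 to 9 when leaving out a replicate, and 6 to 9 otherwise. With nearest starts it was 7, beside 13% of all genes. That setting added egl-27, from a peak outside its promoters, and left out lin-53, mrg-1 and htz-1. The median rank of 1169 was 1648.5 from 1000 bp upstream, 1180.5 by the mean of replicate ranks, and 834 to 858 when leaving out a replicate, where mep-1 or let-418 was no longer counted. All 5 summits matched in both replicates within 50, 100 or 200 bp, but 3 did so among the strongest 3726 replicate peaks, without mep-1 and let-418. The share of all bound genes under this stricter match is not given here, so the loss cannot be called particular to these genes. The E2F type string was at 1 gene within 25, 50 or 100 bp of the summit. The shares of promoter peaks and gene windows given above are for 50 bp only. For TTTGAA no window but 50 bp was counted. At mys-1, mep-1 and let-418 its only copy in that window lay more than 25 bp from the summit. No paired analysis was possible because the series has 1 group. Read depth was not known, so no interval was made, and weak peaks such as that of let-418 cannot be placed firmly on either side of the threshold.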
